A study of Homo sapiens with 2 samples.

Results

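The AP-1 family was described here by a set list of 10 gene symbols, of the 23686 gene symbols in the deposited tables. They were the FOS-type genes FOS, FOSB, FOSL1 and FOSL2, the JUN-type genes JUN, JUNB and JUND, and the related genes ATF3, BATF3 and MAFF. Poly(A) RNA had been sequenced from A427 cells, which come from a human lung cancer of the non-small cell type and grow both as floating spheres and attached to the dish. Floating, sphere-forming cells and adherent cells were collected separately and gave 1 library each. Both came from medium with serum and both carry the genotype label WT, with no agent named, while the series title calls these cells CTNNB1-mutated. Neither growth form was replicated. No test across samples was therefore possible, and no p-value is given. Every fold below compares these 2 libraries, with a 95% interval that covers counting error only and not the spread between cultures.

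AP-1 is not a single protein but a set of dimers of basic leucine zipper proteins that bind the palindromic element TGA(C/G)TCA. FOS-type proteins do not pair with each other and need a partner of another type, mainly JUN-type. JUN-type proteins also pair among themselves, so the balance between the types bears on which dimers can form. FOS, FOSB, JUN and JUNB are among the immediate-early genes, switched on within minutes by growth factors and stress. JUND is expressed steadily in many cell types, and FOSL1 is often high in carcinoma cells with active MAP kinase signalling.

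The floating library held 27148842 reads assigned to genes and the adherent library 26384670. All 10 members reached 1 CPM (reads per 1000000 of the scaled library) in at least one library, and so did 13131 genes in all. Each of the 10 had whole-number read estimates in both libraries. Of the 6 epithelial markers, EPCAM, KRT8, KRT18 and CDH1 were tested, with EPCAM at 582 TPM (transcripts per 1000000, a level per transcript length) in floating and 615 TPM in adherent cells. KRT19 (22 reads in floating and 8 in adherent cells) and KRT7 (3 and 4 reads) lay under 1 CPM in both libraries. The lung lineage markers NKX2-1, SFTPB, SFTPC, NAPSA and SCGB1A1 summed to 1.81 TPM in floating and 2.07 TPM in adherent cells, with SFTPC and SCGB1A1 at 0 reads in both. Of the leukocyte markers, CD3E and LYZ were at 0 in both libraries, while CD68 stood at 31.5 TPM in floating and 16.9 TPM in adherent cells. PTPRC (CD45) went the other way, at 1.95 TPM in floating and 2.84 TPM in adherent cells (log2 ratio -0.44, -0.80 to -0.09). The 5 leukocyte markers summed to 33.6 TPM in floating and 19.7 TPM in adherent cells, the 3 endothelial markers to 0.42 and 0.13 TPM, and the 4 fibroblast markers to 8.56 and 14.6 TPM. The part of these differences in the results below was not tested. In bulk RNA, more cells that express a gene and more RNA per cell cannot be told apart.

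Of the 10 AP-1 genes, 3 passed the size rule, a ratio of 2-fold or more whose counting interval leaves out 1. All 3, FOS, FOSB and ATF3, were higher in floating cells. Among all genes tested, 1.28% passed this rule as higher and 0.754% as lower. A counting interval above no difference was found for 7 members and one below it for 1, JUND, against 25.5% and 25.6% of all genes tested. With the threshold at 1.5-fold 6 members were higher, against 3.24% of all genes, and at 4-fold 1 was (FOS), against 0.244%. The median log2 ratio over the 10 genes was 0.66, against -0.005 over all genes tested. These genes were grouped with earlier results of these libraries known, so the counts describe the group and are not independent evidence of its direction.

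**Figure D1:**
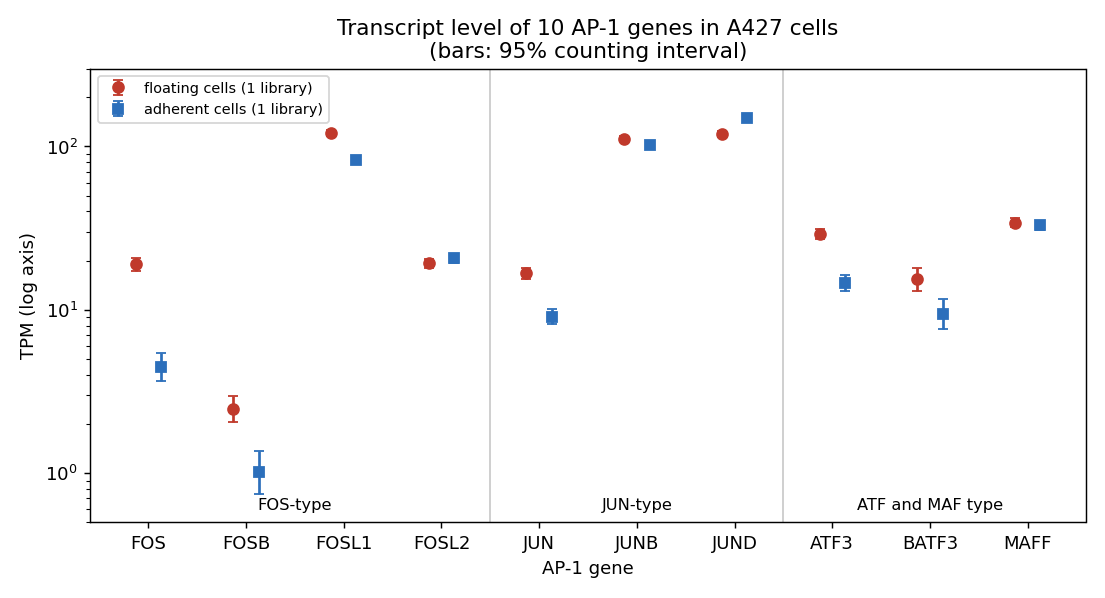
TPM of the 10 AP-1 genes on a log axis, with floating cells as red circles and adherent cells as blue squares (1 library each) and bars for the 95% counting interval. FOSL1, JUNB and JUND lie between 82.9 and 149.6 TPM in both libraries, while FOS stood at 18.95 TPM in floating and 4.48 TPM in adherent cells.

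FOS showed the largest ratio of the family. FOS, the prototype partner of JUN, had 496 reads and 18.95 TPM in floating cells, against 110 reads and 4.48 TPM in adherent cells. That was a 4.34-fold excess in floating cells (interval 3.54 to 5.41), which placed FOS at position 24 from the top among the 13131 log2 ratios. Its neighbours among genes that reached 10 CPM in either library were the tetraspanin TSPAN1 and the small proline-rich protein SPRR2D above it, and the co-regulator CITED4 and LBH below it, with 4.05-fold to 4.56-fold excesses. FOS and these 4 genes reached 10 CPM in the floating library alone, so the filter took them in through the library in which they were high. With 2 libraries the ratio is the only pattern on which genes can be compared.

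FOSB, a close relative of FOS, was the least abundant member. It had 118 reads and 2.47 TPM in floating cells, against 46 reads and 1.02 TPM in adherent cells. The ratio was 2.46-fold with a wide interval (1.75 to 3.57). FOSB overlaps ERCC1 on the opposite strand in the GENCODE annotation, and the labels do not state whether counting used strand. ERCC1, a DNA repair gene, stood at 77.4 TPM in floating and 76.6 TPM in adherent cells, with a log2 ratio of -0.06 (interval -0.17 to 0.05).

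FOSL1, which encodes FRA-1, supplied most of the FOS-type transcripts. It stood at 120.7 TPM in floating and 82.9 TPM in adherent cells, with 2364 and 1523 reads. Its log2 ratio was 0.59 (0.49 to 0.68), short of the size rule. FOSL2, which encodes FRA-2, had nearly the same number of reads in both libraries, 977 in floating and 985 in adherent cells, at 19.2 and 20.7 TPM. Its ratio was 0.959 with an interval that includes no difference (0.877 to 1.05). FOSL2 overlaps AC104695.3 on the same strand and FLJ31356 on the opposite strand, and no counts were found under these names. The 4 FOS-type genes thus ranged from no detectable difference to above 4-fold, and for each of the 6 pairs among them the exact interval of the relative change excluded 1.

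None of the 3 JUN-type genes passed the size rule. JUN, the founding member, had 701 reads and 16.8 TPM in floating cells, against 356 reads and 9.08 TPM in adherent cells. Its 1.90-fold excess (1.67 to 2.17) lay just under 2-fold and so outside the rule. JUNB, induced by many of the same stimuli, stood at 111.9 TPM in floating and 101.8 TPM in adherent cells, a 1.13-fold excess (1.07 to 1.20). JUND was the only one of the 10 with an interval below no difference. It stood at 119.1 TPM in floating cells and 149.6 TPM in adherent cells, with 2656 and 3128 reads. JUND was lower in the floating library by 1.22-fold (1.16 to 1.28). JUNB overlaps HOOK2 on the opposite strand, and HOOK2 had 1002 reads in floating and 1140 in adherent cells.

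ATF3, a stress-induced factor that pairs with JUN proteins, had 703 reads and 29.2 TPM in floating cells, against 334 reads and 14.6 TPM in adherent cells. It was 2.03-fold higher in floating cells (1.78 to 2.32). This call rests on a narrow margin, since the log2 ratio was 0.99 on the deposited TPM and 0.97 after removal of the trend over transcript length. ATF4, which drives ATF3 in the integrated stress response, and DDIT3 (CHOP), another target of ATF4, were at 484 and 365 TPM in floating cells, against 408 and 259 TPM in adherent cells.

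BATF3, a short factor without a transactivation domain that is best known from dendritic cells, had 159 reads and 15.4 TPM in floating cells, against 92 reads and 9.46 TPM in adherent cells, a 1.67-fold excess (1.28 to 2.18). MAFF, a small MAF protein that also lacks a transactivation domain, was close to even at 34.2 TPM in floating and 32.9 TPM in adherent cells (1.09-fold, 0.997 to 1.20). MAFF overlaps PLA2G6 on the opposite strand, which had 356 reads in floating and 417 in adherent cells.

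**Figure D2:**
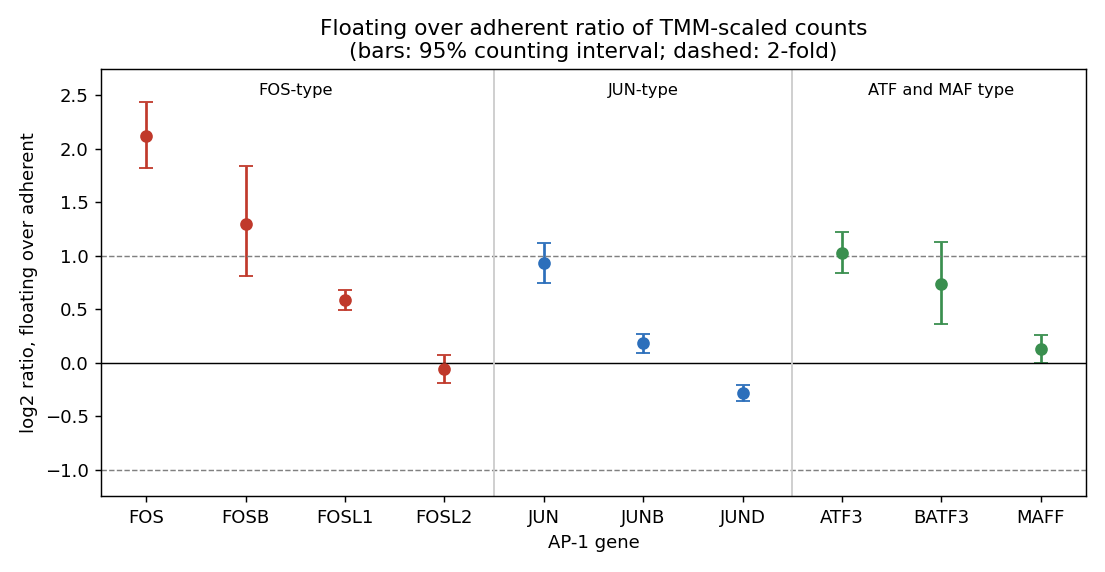
Log2 ratio of floating over adherent cells for each AP-1 gene from scaled counts, coloured by type, with bars for the 95% counting interval and dashed lines at 2-fold. FOS stands at 2.12, ATF3 at 1.02 and JUN at 0.93, and JUND lies below 0 at -0.28.

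The sequence before the start site was compared between members with large and small ratios, because AP-1 genes are known to be controlled by AP-1 and CREB-type elements in their own promoters. RefSeq promoters on GRCh38.p14 were matched for 8 of the 10 genes, and FOSL1 and BATF3 were not matched. The table gives 2 start sites for ATF3, of which the upstream is shown. Which start sites these cells use was not tested, for ATF3 or for any other member. The 160 bases before the start site are given for FOS, FOSB, JUN and ATF3, which had the 4 largest ratios, and for FOSL2 and JUND, which had the lowest. Capitals mark matches to TGACGT or its reverse complement ACGTCA, to TGACATCA, and to TATAAA on the gene's strand.
FOS (chr14:75278668-75278827, plus strand): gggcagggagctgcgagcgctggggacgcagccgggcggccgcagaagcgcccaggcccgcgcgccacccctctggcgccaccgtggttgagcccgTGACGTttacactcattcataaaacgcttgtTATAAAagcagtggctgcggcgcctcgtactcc
FOSB (chr19:45467836-45467995, plus strand): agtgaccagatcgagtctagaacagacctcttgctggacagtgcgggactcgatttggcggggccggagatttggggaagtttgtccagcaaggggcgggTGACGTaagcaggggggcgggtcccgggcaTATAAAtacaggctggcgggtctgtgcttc
ATF3 (chr1:212565247-212565406, plus strand): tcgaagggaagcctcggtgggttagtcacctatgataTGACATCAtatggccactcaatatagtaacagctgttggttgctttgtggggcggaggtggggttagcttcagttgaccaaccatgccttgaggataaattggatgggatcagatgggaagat
JUN (chr1:58784048-58784207, minus strand): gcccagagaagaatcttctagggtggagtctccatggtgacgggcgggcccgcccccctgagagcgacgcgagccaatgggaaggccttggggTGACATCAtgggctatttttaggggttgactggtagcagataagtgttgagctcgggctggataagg
FOSL2 (chr2:28392698-28392857, plus strand): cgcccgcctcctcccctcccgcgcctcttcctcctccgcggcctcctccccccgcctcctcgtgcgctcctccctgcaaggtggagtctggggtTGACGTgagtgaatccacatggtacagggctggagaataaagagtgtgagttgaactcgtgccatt
JUND (chr19:18281623-18281782, minus strand): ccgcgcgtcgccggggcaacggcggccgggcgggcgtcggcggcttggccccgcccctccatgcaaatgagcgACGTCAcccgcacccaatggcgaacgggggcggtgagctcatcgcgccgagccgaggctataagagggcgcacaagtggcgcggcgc

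FOS and FOSB had the same arrangement, with TGACGT beginning 64 and 60 bases before the start and TATAAA beginning 33 and 30 bases before it. FOSL2, with a ratio near 1, also had TGACGT, 66 bases before its start, but no TATAAA in the 250 bases scanned. JUN and ATF3 both held TGACATCA, beginning 67 and 123 bases before the start. ATF3 also had a match to TGATGNAA, the form of amino acid response elements bound by ATF4. It began 191 bases before the upstream start of ATF3, outside the stretch shown, and whether it serves as such an element was not tested. The window of the other ATF3 start site had just TATAAA, beginning 230 bases before it. JUND had the full palindrome TGACGTCA beginning 200 bases before the start, outside the stretch shown, and ACGTCA beginning 87 bases before it. MAFF, whose ratio was also near 1, had TGACGTCA beginning 54 bases before the upstream of its start sites, and JUNB had TATAAA beginning 31 bases before its start. TGACGT and TATAAA thus occurred in members with large and with small ratios, while TGACATCA was found in JUN and ATF3 and the full TGACGTCA in JUND and MAFF. Among all 35116 promoters of the table, 7.1% held TGACGT on either strand in the same 250 bases, 1.65% TGACGTCA (which contains TGACGT), 2.37% TGACATCA and 3.14% TGATGNAA on either strand, and 6.8% TATAAA on the gene's strand. TGANTCA, which is wider than the AP-1 element because it takes any middle base, was present in 6.57% of all promoters. The CArG box bound by SRF was present in 1.16%. Neither had a match in the windows of the 8 genes. These are matches of letters and do not show binding, and a missing match says nothing beyond this window.

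The AP-1 transcript pool was larger in floating cells and its make-up differed. The 10 genes summed to 487.9 TPM in floating cells and 426.5 TPM in adherent cells, and their reads together were 1.18-fold higher in floating cells on scaled counts (1.14 to 1.21). FOS-type transcripts made up 33.1% of the pool in floating cells (interval 32.2% to 34.0%) and 25.6% in adherent cells (24.7% to 26.5%). JUN-type transcripts made up 50.8% (49.8% to 51.7%) in floating cells and 61.1% (60.1% to 62.1%) in adherent cells. ATF3, BATF3 and MAFF together made up 16.1% in floating and 13.4% in adherent cells. JUN-type genes therefore supplied the largest part of the pool in both libraries.

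**Figure D3:**
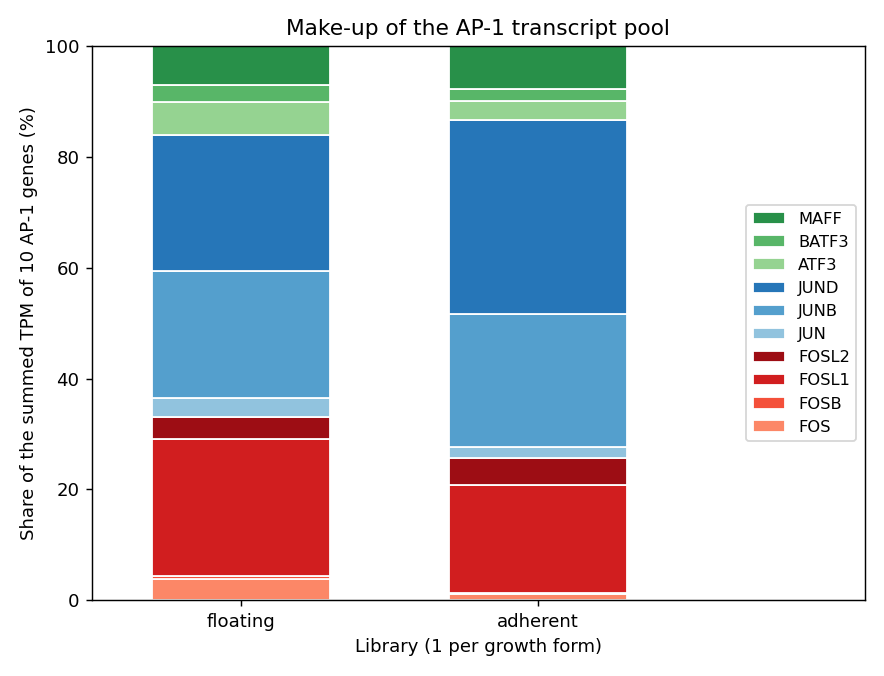
Share of each gene in the summed TPM of the 10 AP-1 genes, floating library at left and adherent library at right, with FOS-type in reds, JUN-type in blues and ATF and MAF type in greens. JUND takes 24.4% of the floating bar and 35.1% of the adherent bar, and FOSL1 takes 24.7% and 19.4%.

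A few abundant genes set these shares. JUND accounted for 24.4% of the pool in floating and 35.1% in adherent cells, a difference of -10.7 percentage points, about as large as that of the whole JUN type (-10.3 points). FOSL1 accounted for 24.7% in floating and 19.4% in adherent cells. FOS, in spite of its 4.34-fold excess, accounted for only 3.88% of the pool in floating cells (3.56% to 4.23%) and 1.05% in adherent cells (0.872% to 1.26%). In level, FOS-type transcripts summed to 161.4 TPM in floating and 109.1 TPM in adherent cells, a difference of 52.3 TPM of which FOSL1 gave 37.8 and FOS 14.5 TPM. JUN-type transcripts summed to 247.8 TPM in floating and 260.5 TPM in adherent cells, with a difference of -30.5 TPM for JUND, 10.1 TPM for JUNB and 7.68 TPM for JUN.

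Within each type the members kept the same order of TPM in both libraries, while the order across types differed. FOSL1 made up 74.8% of FOS-type transcripts in floating and 76.0% in adherent cells, while FOS made up 11.7% (10.8% to 12.8%) and 4.11% (3.42% to 4.93%). In floating cells the highest members were FOSL1 and JUND, whose levels did not differ beyond counting error (ratio 1.01, interval 0.959 to 1.07), followed by JUNB. In adherent cells the order was JUND, JUNB and FOSL1, each apart from the next. FOS was the seventh of the 10 in floating cells, level with FOSL2 within counting error (FOSL2 over FOS 1.01, interval 0.910 to 1.13). In adherent cells it was the ninth, above FOSB alone. JUN and BATF3 were neighbours that did not differ beyond counting error in either library.

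The FOS-type to JUN-type ratio, which does not depend on scaling between libraries, was 0.651 in floating cells (0.625 to 0.679) and 0.419 in adherent cells (0.399 to 0.440), on summed TPM. It was 1.56-fold higher in floating cells (1.46 to 1.66). The direction did not rest on FOS alone, since the ratio was 1.43-fold higher with FOS left out and 1.63-fold higher with FOSL1 left out. FOS and FOSL1 were not left out together. The remaining FOS-type genes, FOSB and FOSL2, differed by 1.45 and -1.46 TPM (floating minus adherent). Leaving out JUND brought it to 1.28-fold. On scaled counts, FOS-type reads together were 1.43-fold higher in floating cells (1.37 to 1.51), while JUN-type reads together were even (1.01-fold, 0.969 to 1.04).

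Ratios overlapped between the types. Of the 12 pairs of a FOS-type with a JUN-type gene, the FOS-type gene gained on its partner in floating cells in 8, lost in 3, and in 1 the exact interval of the odds ratio on reads included no difference. FOS gained on JUND most, with a FOS to JUND ratio of 0.159 in floating and 0.0299 in adherent cells on TPM, a 5.31-fold change on reads (4.28 to 6.63). It also gained on JUN, by 2.29-fold (1.79 to 2.95). The 3 pairs in which the FOS-type gene lost were FOSL1 to JUN (0.788, interval 0.681 to 0.911), FOSL2 to JUN (0.504, 0.430 to 0.590) and FOSL2 to JUNB (0.847, 0.760 to 0.943). FOSB to JUN was the pair whose interval included no difference (0.896 to 1.92). Among JUN-type genes, JUN gained on JUND by 2.32-fold (2.02 to 2.67) and on JUNB by 1.68-fold (1.46 to 1.94). For JUN to ATF3 the interval included no difference (0.936, 0.776 to 1.13).

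**Figure D4:**
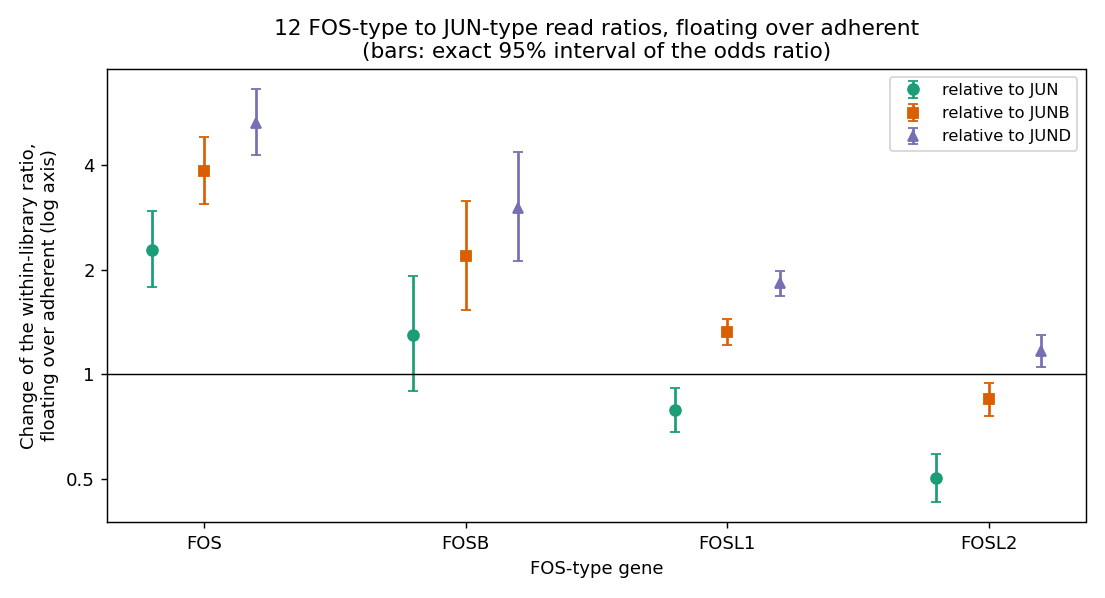
Change of the ratio of each FOS-type gene to each JUN-type gene, floating over adherent, on a log axis, with symbols for the JUN-type partner and bars for the exact 95% interval. FOS lies above 2 against all 3 partners, whereas FOSL2 lies at 0.504 against JUN and 1.17 against JUND.

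None of the related basic leucine zipper genes tested passed the size rule. Among all genes tested 1.28% passed as higher and 0.754% as lower, and a count of none in lists this short lies near that share. Of 12 further AP-1 superfamily genes, which pair with FOS or JUN proteins or bind related elements, 7 were tested, with a median log2 ratio of -0.05. Of these 7, 3 had intervals above no difference and 2 below, against 25.5% and 25.6% of all genes tested. The farthest from even was the small MAF gene MAFK, at 20.3 TPM in floating and 16.2 TPM in adherent cells (log2 ratio 0.36, 0.21 to 0.51). ATF2, a JUN partner, stood at 46.4 TPM in floating and 56.6 TPM in adherent cells. BATF had no read in either library, a count of 0 that allows at most 0.1102 CPM in floating and 0.1140 CPM in adherent cells. The 5 tested CNC and BACH partners of small MAF proteins had a median of 0.14, with NFE2L1 the farthest from even at 149.9 TPM in floating and 176.4 TPM in adherent cells. Of the 12 CREB, ATF and C/EBP genes (median 0.13), 7 had intervals above no difference and 1 below, against 25.5% and 25.6% of all genes tested. CEBPB, a regulator of inflammatory genes, led them at 68.4 TPM in floating and 43.6 TPM in adherent cells (log2 ratio 0.69, 0.58 to 0.81).

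The lists of upstream regulators had medians near even, while some of their genes were not even. Among all genes tested 1.28% passed the size rule as higher and 0.754% as lower. A count of none in lists this short lies near that share. SRF, which drives FOS transcription together with ternary complex factors, stood at 31.0 TPM in floating and 30.8 TPM in adherent cells. Of the 6 tested genes of SRF and its cofactors (median -0.04) none passed the rule. Of these, 1 had an interval above no difference and 2 below, against 25.5% and 25.6% of all genes tested. Within them ELK3, a ternary complex factor, was at 91.2 TPM in floating and 57.2 TPM in adherent cells (log2 ratio 0.72, 0.62 to 0.81), while ELK1 was at 71.3 TPM in floating and 85.5 TPM in adherent cells. None of 16 MAP kinase pathway genes passed the rule (median -0.02). The intervals of 10 included no difference, as did those of 6426 of the 13131 genes tested. Among those 10 were MAPK8 and MAPK9, which encode JNK kinases of JUN. Of the 16, 3 had intervals above no difference and 3 below, against 25.5% and 25.6% of all genes tested. The farthest from even was RPS6KA5 (MSK1), a kinase of CREB and histone H3, at 11.2 TPM in floating and 15.6 TPM in adherent cells (log2 ratio -0.43, -0.59 to -0.26). Kinase activity is not measured by these data. Of 10 genes for turnover of AP-1 proteins and mRNAs none passed the rule (median 0.04). ZFP36L1 and ZFP36, which bind AU-rich elements of short-lived mRNAs, had log2 ratios of 0.50 (0.41 to 0.59) and 0.47 (0.33 to 0.61), while the intervals for the ubiquitin ligase genes FBXW7, RFWD2 (COP1) and ITCH included no difference.

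The other immediate-early genes were uneven. Of 18 tested, 2 passed the size rule as higher in floating cells and none as lower, against the 1.28% of all genes, and 11 had intervals above no difference and 3 below, against 25.5% and 25.6% of all genes (median 0.16). EGR1, a zinc finger factor induced together with FOS, stood at 153.7 TPM in floating and 39.7 TPM in adherent cells, and IER3, a stress-induced regulator of apoptosis, at 66.0 TPM in floating and 32.4 TPM in adherent cells. Members of the same class with small ratios were IER2 (log2 ratio 0.12), IER5 (0.01) and KLF6 (0.08). The 3 with intervals below no difference were KLF10, CTGF and NR4A2.

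AP-1 target genes split. Of 34 genes listed as known targets, 18 were tested, 5 passed the rule as higher in floating cells and none as lower, and 12 had intervals above no difference and 5 below, with a median log2 ratio of 0.67. Among all genes tested 1.28% passed as higher, and 25.5% had intervals above and 25.6% below no difference. This list, like the others, was chosen with earlier results of these libraries known. Its counts and median describe the list and are not independent evidence of its direction. IL8, a chemokine with an AP-1 site in its promoter, had 157 reads in floating and 42 in adherent cells, a 3.58-fold excess (2.56 to 5.21). SPRR2A, a cornified-envelope protein, was 3.53-fold higher (2.90 to 4.35), but its estimates have decimals and its family shares reads. LAMB3, a laminin chain, had 34 reads in floating and 10 in adherent cells. It reached 1 CPM in the floating library alone and so was tested only through the library in which it was high, whereas the other 4 reached 1 CPM in both. Just under 2-fold were the urokinase receptor PLAUR (23.2 TPM in floating and 12.4 TPM in adherent cells) and the metallothionein MT2A (92.2 and 47.4 TPM). The 5 with intervals below no difference were ITGB4, CCND1, GJA1, LAMA3 and VIM, with log2 ratios from -0.38 to -0.07. CCND1, the cyclin D1 gene, stood at 583 TPM in floating and 746 TPM in adherent cells. DUSP1 is in both of the last lists.

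**Figure D5:**
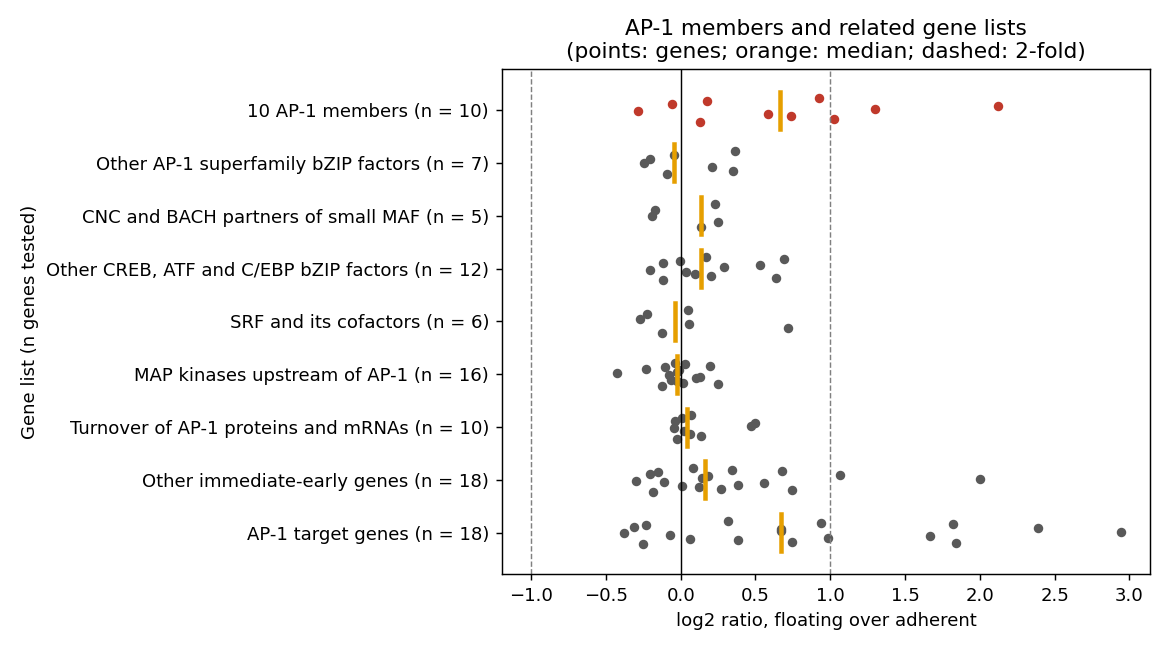
Log2 ratio of floating over adherent cells for each tested gene of the AP-1 members (red) and of related gene lists (grey), with the median of each list in orange and dashed lines at 2-fold. Medians of the members (0.66) and of the AP-1 target genes (0.67) lie apart from those of the other lists, which range from -0.05 to 0.16. Members and lists were chosen with earlier results of these libraries known, so this gap describes them and is not independent evidence.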

How the data were processed

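The authors deposited estimated counts per gene, without normalization, and TPM, which the authors scaled before deposit, for 1 floating and 1 adherent library. The submitters' processing notes list STAR 2.5.3a, RSEM 1.3.3, FastQC 0.11.1 and hg19, and name neither an annotation nor a strand setting. A KAPA mRNA kit was used for the libraries, per the labels' protocols.

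Estimated counts were rounded and scaled by TMM (edgeR 4.0.16, R 4.3.3). The log2 ratio used a prior count of 0.5, and a gene was tested if it reached 1 CPM in either library. Intervals of ratios between libraries are exact Clopper-Pearson intervals conditional on the summed reads. Intervals of TPM levels are Poisson, those of shares and of the FOS-type to JUN-type ratio come from the delta method, and those of pairs are exact for the conditional odds ratio. All are at 95% and cover counting error only. Reads without molecular identifiers are not independent molecules, so the intervals may be too narrow even for counting error. A count of 0 was given a limit of 3 reads. A gene was called if its ratio was 2-fold or more and its interval left out 1. The calculation was tested on simulated counts.

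The members and lists were chosen with earlier results of these data known. Named beside the 10 members were up to 4 called genes per list and direction, or the gene farthest from even by its interval, and the 2 genes on each side of FOS. Others were named after their values were seen. A few genes taken by this rule are not reported here. Other settings were library totals, size factors of DESeq2 1.42.0, the upper quartile, TPM (log2 of TPM + 0.1), a prior count of 5, other filters and thresholds, and left-out members. The length trend (20 bins of reads per TPM) and the ratio without FOSL1 were added after the data were seen. Python 3.11.15 with scipy 1.17.1 was used.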

Additional observations from a re-analysis of the deposited data

How the results depend on the processing

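No paired analysis was possible because each growth form had 1 library. The sign of the log2 ratio of all 10 members was the same under 6 other settings of scaling, prior count and length trend. Log2 ratios were 2.06 to 2.13 for FOS, 1.20 to 1.33 for FOSB and -0.33 to -0.28 for JUND. These settings moved the median over all genes by only -0.043 to 0.009, so a large ratio could hardly change sign. For MAFF and FOSL2 the counting intervals included no difference, so a kept sign gives no direction. ATF3 missed 2-fold on TPM (0.99) and with the length trend removed (0.97), and FOSB (4.33 CPM in floating cells) was not tested at 5 CPM, so that 2 members were higher under each of these 3 settings. At 1.5-fold 6 members were higher and at 4-fold 1, with FOSL1 (log2 ratio 0.59) on the 1.5-fold threshold. The FOS-type to JUN-type change was 1.43 on counts not per length, 1.43 without FOS, 1.28 without JUND and 1.69 without FOSL2. In the related lists 7 genes were higher, against 12 with no filter, 15 at 1.5-fold and 2 at 4-fold. Of all genes tested, 1.28% were higher in the main setting, 3.24% at 1.5-fold and 0.244% at 4-fold. Dropping the filter takes in genes with few reads, such as MMP1 (17 reads in floating and 0 in adherent cells). Over all genes 168 were higher and 99 lower. With no filter these were 286 and 164, at 5 CPM 64 and 41, at 1.5-fold 426 and 381, and at 4-fold 32 and 8. The median of the other AP-1 superfamily genes was 0.21 with no filter and 0.01 with the length trend removed, and that of SRF and its cofactors 0.05 and 0.01. FOSB (46 reads in adherent cells) and BATF3 (92) had the lowest counts of the members and the widest intervals among those of their types.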

Other observations

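Of the 34 listed AP-1 targets, 16 lay under 1 CPM in both libraries, and most of those with a read had more in floating cells. The genes named here were picked out after their values were seen. MMP1, the interstitial collagenase and a classical AP-1 target, had 17 reads in floating and 0 in adherent cells (exact interval of the ratio from 3.99 upwards). KRT17, a keratin of activated epithelium, had 8 reads in floating and 0 in adherent cells (interval from 1.65 upwards). PLAU, the urokinase gene, had 15 reads in floating and 2 in adherent cells (5.99-fold, interval 1.69 to 65.3). SPP1, which encodes osteopontin, had 20 and 6 reads. Of the 16 listed targets under 1 CPM, 13 had at least 1 read and 12 of these had more in floating cells after scaling, with IL6 (0 reads in floating, 1 in adherent cells) the exception. Among all genes under 1 CPM with a read, 50.9% had more in floating cells. The target list was chosen with earlier results of these libraries known, so its count is not independent evidence of a direction. Summed over the 16 genes there were 103 reads in floating and 24 in adherent cells, and 8 of the 13 had at most 5 reads in either library.

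The keratin pair KRT8 and KRT18 stood at 581 and 613 TPM in floating cells, against 327 and 342 TPM in adherent cells, while CDH1 (E-cadherin) stood at 13.9 TPM in floating and 18.9 TPM in adherent cells.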
